A study of Mus musculus with 8 samples.

Results

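The long non-coding RNA (lncRNA) probes of a mouse expression array were described by their identifiers. They were all non-control probes whose name contains LNC or LINCRNA, and they made up 29618 of the 60823 non-control probes (48.7%), each printed as 1 spot. They fell into 4 identifier families: 27812 ASMM10LNC1A probes, 1092 humanlincRNA probes, 639 mouselincRNA probes and 75 MM9LINCRNAEXON probes. The comparison set was the 7912 probes whose name starts with ASMM10P and a digit. The sources used here do not say what the ASMM10P probes target, nor what the family names stand for.

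RNA came from the submandibular gland, a major salivary gland, of male mice aged 20 weeks. Of the 8 arrays, 4 were of mice on normal chow (Ctrl-1 to Ctrl-4) and 4 of mice on a high-fat diet (DIO-1 to DIO-4). Each array held 1 labelled sample in a single colour (Cy3), made from total RNA depleted of ribosomal RNA and amplified by random priming along the transcripts. The labels name no genetic change in either group, and they do not say whether each array held 1 mouse, so a p-value here reflects only how much these samples vary, which may be technical. In whole-gland RNA, fewer cells of a type and less RNA per cell cannot be told apart.

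LncRNAs are transcripts longer than a conventional length limit that are not translated into protein. Many are capped, spliced and polyadenylated like messenger RNA, and some act in the nucleus on chromatin or transcription while others bind proteins or microRNAs in the cytoplasm. As a class they are known for lower and more cell-type-restricted levels than messenger RNAs. Intergenic lncRNAs (lincRNAs) are those that lie between protein-coding genes.

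None of the lncRNA probes came with a gene name or accession: of the 50 probes on the array that did, 46 could be given a symbol and 0 were lncRNA probes. Familiar lncRNAs such as Malat1 or Neat1 therefore could not be looked up. The labelled tissue could not be checked against salivary markers either, because 3 of the 51 genes in the marker list were measured under a name and none of these was a salivary gene. The 3 were Chgb, a granule protein of neuroendocrine cells and neurons, Mbp, a myelin protein, and Mzb1, a plasma cell chaperone. Results are given by probe identifier, and the brightness of a probe depends on its sequence and labelling as well as on its transcript, so the levels below describe signal and not molecules.

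Array Ctrl-2 stood apart from the others. Over the 29587 lncRNA probes measured on every array, the correlation of levels between 2 arrays lay between 0.980 and 0.988 among the other 7 arrays, and between 0.948 and 0.962 for Ctrl-2. Among the 13989 lncRNA probes with a mean level above -2, Ctrl-2 lay more than 4-fold from the median of the other arrays at 3.22% of probes (189 above and 261 below), against 0.0286% to 0.543% of probes on each other array. ASMM10P probes showed the same array apart, with 4.30% of probes more than 4-fold away on Ctrl-2. Arrays also differed in detection: over all spots, the share well above background ran from 81.2% on DIO-1 to 91.2% on Ctrl-4 and Ctrl-2. No spot was saturated. The first part of the array position in the file headers went with the diet, so position and diet cannot be told apart, and the second part went with the replicate number.

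The first question was how bright the lncRNA probes were. A level is the log2 processed signal minus the array's 75th percentile over non-control spots, so that 0 marks that percentile. The median level of lncRNA probes was -2.15 ± 0.04 (SD, n = 8 arrays), and 21.3% ± 0.23 of them lay above 0. Over all non-control probes the median was -1.98 ± 0.04 and 24.8% lay above 0. By array, the median was -2.11 on Ctrl-1, -2.11 on Ctrl-2, -2.15 on Ctrl-3 and -2.14 on Ctrl-4, and -2.21, -2.20, -2.16 and -2.13 on DIO-1 to DIO-4. ASMM10P probes had a median of -2.66 ± 0.04, below that of the lncRNA probes on each of the 8 arrays. The difference within an array was 0.51 ± 0.03 log2 units and ran from 0.47 on Ctrl-3 to 0.55 on Ctrl-1. An exact sign-flip permutation test over arrays (two-sided) gave p = 0.0078, the smallest that 8 arrays can give, and 0.0130 adjusted over 5 tests. The same probes were on every array, so this p-value says only that the difference recurred between arrays. It does not measure how far the probes of a set vary, and the same holds for the tests of brightest share and detection below.

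The size of that difference depended on the probes kept and on the background correction. Among probes well above background on all 8 arrays it was 0.0079 (exact sign-flip p = 0.523). That filter itself acts on brightness, and kept 78.6% of lncRNA and 68.7% of ASMM10P probes. With a normexp background correction over all probes the difference was 0.24. The 75th percentile of level was -0.39 ± 0.02 for lncRNA probes and -0.69 ± 0.04 for ASMM10P probes. The 95th percentile was 3.48 ± 0.13 and 3.19 ± 0.09. At the 99th percentile the order turned, with 6.87 ± 0.26 for lncRNA probes and 7.04 ± 0.18 for ASMM10P probes.

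The families differed from each other more than the lncRNA probes as a whole differed from ASMM10P. ASMM10LNC1A had a median of -2.05 ± 0.03, which was 0.61 above ASMM10P (range over arrays 0.57 to 0.65). The humanlincRNA probes had a median of -3.90 ± 0.10 and the mouselincRNA probes of -3.81 ± 0.11. Relative to ASMM10P these families were lower by a mean difference of -1.24 (-1.43 to -1.12) and -1.15 (-1.30 to -1.06), and MM9LINCRNAEXON by -0.62 (-0.87 to -0.43). The families' order against ASMM10P was the same on every array. The humanlincRNA and mouselincRNA families were neighbours in this order, and their ranges over arrays overlapped. For scale, the 15 probes named MM9NEGATIVE had a median of -4.40 ± 0.39.

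**Figure D1:**
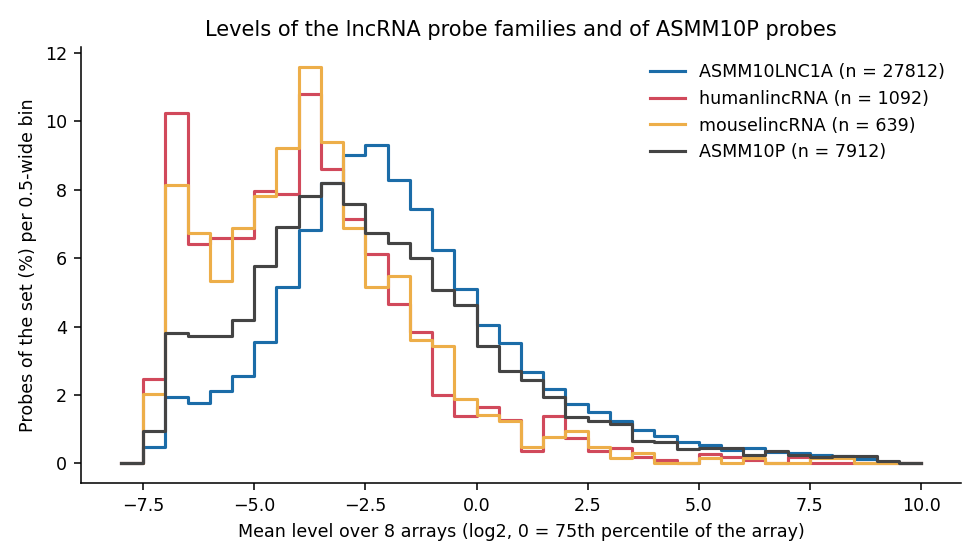
Share of probes in each bin of mean level (horizontal axis, log2 relative to the array's 75th percentile; vertical axis, percent of the set) for 3 lncRNA families and the ASMM10P probes. The ASMM10LNC1A curve lies to the right of ASMM10P (medians -2.05 and -2.66), while the humanlincRNA and mouselincRNA curves peak further left and have a second peak at the lowest levels.

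At the bright end lncRNA probes were fewer than their share of the array. Of the brightest 1% of non-control probes, 41.7% ± 1.81 (SD, n = 8) were lncRNA probes, against 48.7% of all probes. The count was 261, 230, 260 and 246 lncRNA probes on Ctrl-1 to Ctrl-4 and 257, 259, 263 and 251 on DIO-1 to DIO-4. Ctrl-2 was the lowest, and every array lay below 48.7%. The shortfall was -7.02 percentage points ± 1.81, from -10.9 on Ctrl-2 to -5.44 on DIO-3 (exact sign-flip permutation test, two-sided, p = 0.0078, adjusted 0.0130), and -6.47 without Ctrl-2. It was -19.2 points in the brightest 0.1%, -11.4 in the brightest 5% and -10.8 in the brightest 10%.

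Set against ASMM10P, the order depended on how far down the ranking was read, and was not tested. In the brightest 1% lay 0.855% ± 0.04 of lncRNA probes and 0.965% ± 0.05 of ASMM10P probes. In the brightest 10% lay 7.79% ± 0.20 of lncRNA probes and 6.80% ± 0.14 of ASMM10P probes. Of the summed signal of non-control probes, lncRNA probes held 39.7% ± 0.90 and ASMM10P probes 11.1% ± 0.33. The other large family on the array, 22359 ASMM10AP1B probes, held 48.5%, and its median level lay above that of the lncRNA probes on every array (lncRNA minus ASMM10AP1B -0.71, from -0.75 to -0.68). The brightest 1% of lncRNA probes gave 54.1% ± 0.64 of the lncRNA signal. The same share was 49.3% ± 0.67 over all probes, 42.1% ± 0.93 for ASMM10AP1B, 59.7% ± 0.56 for ASMM10P and 79.1% ± 1.95 for the mouselincRNA family.

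The brightest lncRNA probes were steady across arrays. The 10 with the highest mean level were all ASMM10LNC1A probes, with mean levels from 9.07 to 9.57 and ranks 2 to 35 among all non-control probes. ASMM10LNC1A115426906V4, the brightest, read 9.74, 9.34, 9.56 and 9.34 on Ctrl-1 to Ctrl-4 and 9.75, 9.60, 9.64 and 9.55 on DIO-1 to DIO-4. Its highest array was 1.33-fold above its lowest, and the diets overlapped. ASMM10LNC1A109729004V4 came next at a mean of 9.53, with a pooled SD within diets of 0.13. The brightest ASMM10P probe, ASMM10P038161V4, had a mean of 9.28 and rank 15. In the other families the brightest probes were mouselincRNA1606-_P1V4 at 8.31, MM9LINCRNAEXON10664+_P1V4 at 8.19 and humanlincRNA2397+_P1V4 at 7.12.

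Detection was the next measure. A spot counts as detected when the scanner software flagged it as well above background, a threshold on brightness. On average 87.5% ± 3.76 (SD, n = 8) of lncRNA spots were detected, against 87.8% ± 3.61 of all non-control spots. The share was 83.8%, 90.9%, 89.6% and 91.1% on Ctrl-1 to Ctrl-4, and 80.7%, 86.2%, 88.0% and 90.1% on DIO-1 to DIO-4. The lowest shares were on Ctrl-1 and DIO-1, and the diets overlapped. ASMM10P spots were detected at 80.5% ± 5.24, below lncRNA spots on all 8 arrays. The difference was 7.01 points ± 1.50, from 5.44 on Ctrl-2 to 9.38 on DIO-1 (exact sign-flip permutation test, two-sided, p = 0.0078, adjusted 0.0130). It fell to 2.14 points with the software's other flag, which asks only for a positive and significant signal.

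By family, detection was 89.0% ± 3.56 for ASMM10LNC1A, 72.3% ± 5.82 for MM9LINCRNAEXON, 66.3% ± 7.20 for mouselincRNA and 64.4% ± 6.99 for humanlincRNA. The MM9NEGATIVE probes were themselves flagged at 53.2% ± 6.82. If they lack a transcript, which only their name implies, the flag alone is a lenient sign of one. A lower line was the 95th percentile of the array's 308 negative control spots, at a mean level of -6.97. It was passed by 96.5% ± 1.51 of lncRNA probes and 94.3% ± 2.65 of ASMM10P probes. A stricter line, the brightest MM9NEGATIVE probe of the same array, was passed by 45.4% ± 2.72 of lncRNA probes, 39.2% ± 2.15 of ASMM10P probes, 18.4% ± 2.02 of humanlincRNA probes and 19.3% ± 2.19 of mouselincRNA probes.

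**Figure D2:**
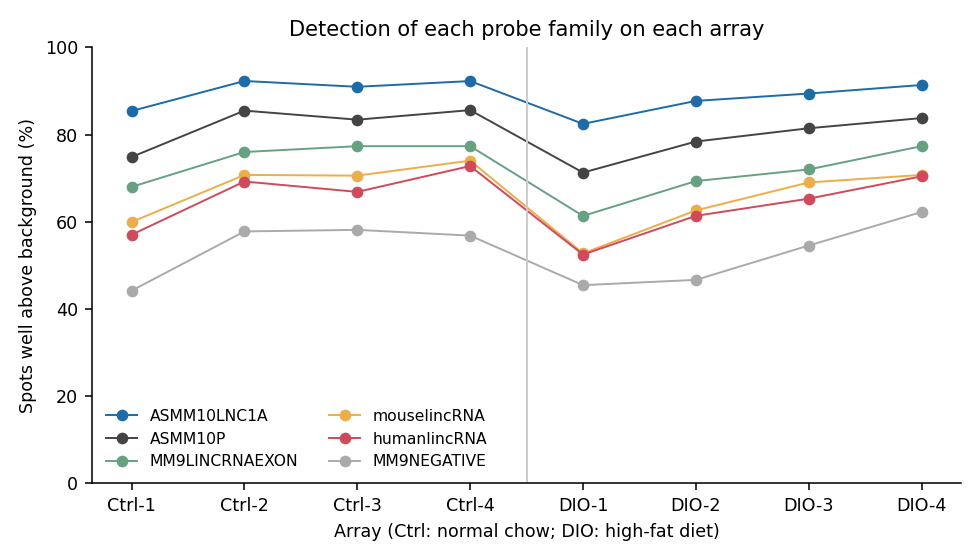
Percent of spots flagged well above background (vertical axis) on each array (horizontal axis, 4 Ctrl and 4 DIO), one colour per family; lines join the values of a family and the arrays have no order. ASMM10LNC1A runs from 82.5% to 92.3% and lies above ASMM10P on each array, and every family is lower on Ctrl-1 and DIO-1 than on the other arrays of its diet.

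Most lncRNA probes gave the same call on every array. Of the 29618 probes, 23287 (78.6%) were detected on all 8 arrays and 1675 (5.66%) on none, close to the shares over all probes (79.2% and 5.54%), while for ASMM10P they were 68.7% and 9.21%. In the humanlincRNA family 48.4% were detected on all arrays and 21.1% on none. The remaining 4656 lncRNA probes (15.7%, against 15.2% of all probes) were detected on some arrays, with a median level of -4.56. Of the 1215 that missed the call on 1 array, 806 missed it on DIO-1, and of the 647 called on 1 array alone, 264 were called on Ctrl-2. Over all probes the same counts were 1539 of 2308 and 545 of 1330, a like split. DIO-1 was also the array with the lowest detection over all spots.

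The spread of a probe is the SD of its levels within a diet, pooled over both diets. Its median was 0.28 log2 units for lncRNA probes and 0.33 for ASMM10P probes, a difference of -0.046 that ran from -0.055 to -0.044 when each array was left out. It was -0.0021 with normexp correction and -0.025 among probes detected on all 8 arrays. Without Ctrl-2 the medians of lncRNA and ASMM10P probes were 0.23 and 0.27. With all arrays the median was also 0.28 over all non-control probes, and 0.27 for ASMM10AP1B. A lower spread than that of ASMM10P was thus not particular to lncRNA probes. By family the medians were 0.28 for ASMM10LNC1A, 0.40 for humanlincRNA, 0.39 for mouselincRNA and 0.38 for MM9LINCRNAEXON. There is 1 value per set over the arrays, so no test applies.

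Dim probes varied more, so the sets were compared at like levels. The median spread of lncRNA probes was 0.60 below a level of -5, fell to 0.21 between -2 and -1, and was 0.29 above 4. The dimmest values sat at a floor that differed between arrays. On DIO-1 the 1st and 5th percentiles of lncRNA level were both -6.51, while on Ctrl-2 the 1st was -7.26. The part of this floor in the spread of the dimmest probes was not tested. ASMM10LNC1A had a lower median spread than ASMM10P in 8 of 10 level bins, and in 8 without Ctrl-2. With all arrays the exceptions were the bins above a level of 2, and without Ctrl-2 they were the dimmest bin, where the medians were 0.5675 and 0.5672, and the brightest. Above a level of 4 the median spread was 0.28 for 1146 ASMM10LNC1A probes and 0.23 for 280 ASMM10P probes, and 0.25 for ASMM10AP1B. Between -2 and -1 it was 0.21 for both ASMM10LNC1A and ASMM10AP1B, and 0.24 for ASMM10P. The humanlincRNA probes had a higher median spread than ASMM10LNC1A in 8 of 10 bins, and in 9 without Ctrl-2. Their widest gap, between levels 1 and 2, was 0.60 against 0.26, over only 19 humanlincRNA probes, and 0.37 against 0.18 without Ctrl-2. For mouselincRNA the count of bins above ASMM10LNC1A was 8 and fell to 5 without Ctrl-2.

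**Figure D3:**
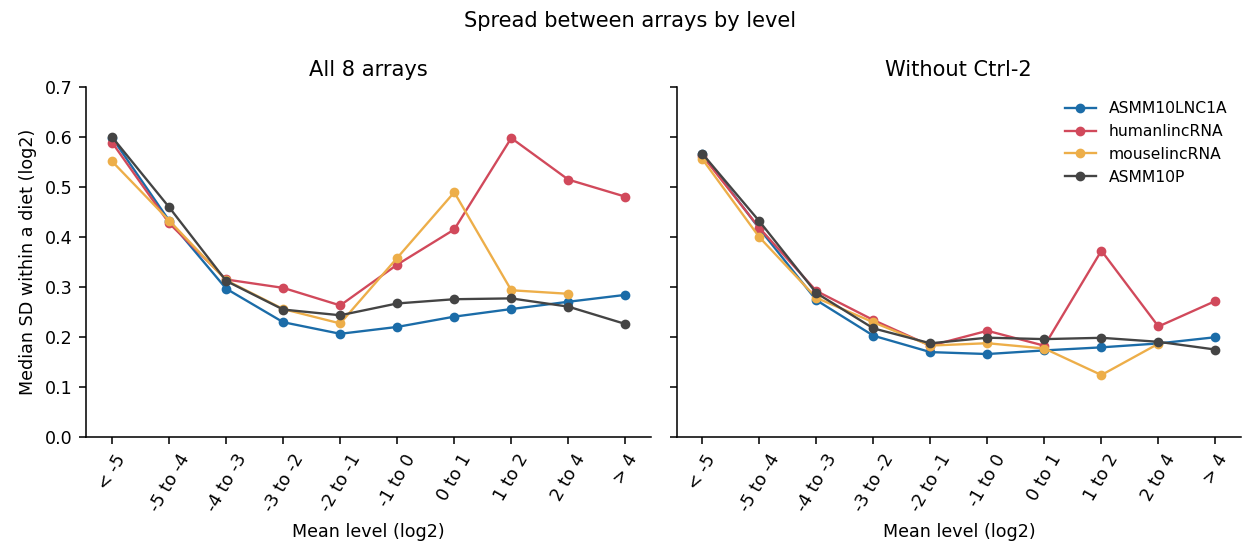
Median within-diet SD of a probe (vertical axis, log2) in bins of mean level (horizontal axis, log2) for 3 lncRNA families and ASMM10P, with all 8 arrays on the left and without Ctrl-2 on the right; bins with fewer than 5 probes are not drawn. On the left the ASMM10LNC1A line lies below ASMM10P up to a level of 2, the humanlincRNA line rises to 0.60 between levels 1 and 2, and the lines lie lower on the right at levels above -1.

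A few lncRNA probes differed between arrays far more than the rest. Of the 23287 detected on all 8 arrays, 1370 (5.88%) had a range over 4-fold, 101 (0.434%) over 16-fold and 20 (0.0859%) over 64-fold. Over all probes detected on all 8 arrays the same shares were 6.57%, 0.579% and 0.106%, and for ASMM10P they were 7.51%, 0.460% and 0.0368% (2 of 5435 probes). Wide ranges were thus no more frequent among lncRNA probes than over the array. This set of 20 was chosen by its range after the values were seen, and is described without a test. It held 19 ASMM10LNC1A probes and 1 mouselincRNA probe, and 16 of the 20 were highest on Ctrl-2 and 4 on DIO-3. The array as a whole showed a like split, with 42 of 51 such probes highest on Ctrl-2 and 9 on DIO-3.

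The widest was ASMM10LNC1A110042811V4, at -1.24, 8.99, 5.72 and 1.97 on Ctrl-1 to Ctrl-4 and -1.78, -0.87, -1.69 and -2.06 on DIO-1 to DIO-4, a 2120-fold range. It was high on Ctrl-2, Ctrl-3 and Ctrl-4, and Ctrl-1 read like the DIO arrays. ASMM10LNC1A108300979V4 followed the same order among its Ctrl arrays, at -2.82, 6.93, 3.38 and -0.28, and lay between -2.76 and -2.26 on DIO. A different order was shown by ASMM10LNC1A100042397V4, at 6.72, 8.53, 6.19 and 4.26 on Ctrl and -1.52, 8.06, 0.10 and -0.75 on DIO. Here DIO-2 was as high as the Ctrl arrays and the other DIO arrays were low.

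ASMM10LNC1A103061809V4, ASMM10LNC1A108014197V4 and ASMM10LNC1A103564055V4 were also highest on Ctrl-2 and, among DIO arrays, on DIO-2, with levels there of 7.60 and 5.60, 5.24 and 3.73, and 5.78 and 2.47. The remaining DIO arrays of these 3 probes lay between -3.14 and -0.68. Of the 16 probes highest on Ctrl-2, 14 had DIO-2 as their highest DIO array. Over all probes on the array with a range over 64-fold, it was 30 of 42. At the lower limits the link was looser. Among lncRNA probes it was 49 of 78 over 16-fold and 203 of 417 over 4-fold. Over all probes it was 111 of 214 and 530 of 1180. Ctrl-2 and DIO-2 share their replicate number and the second part of their array position. Correlations between the profiles of the 16 probes over the 8 arrays had a median of 0.90 (0.53 to 0.999), a description of probes chosen for the same high array.

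The 4 probes highest on DIO-3 were ASMM10LNC1A100052569V4, ASMM10LNC1A112016703V4, ASMM10LNC1A107165053V4 and ASMM10LNC1A100037425V4. ASMM10LNC1A112016703V4 read 1.92, 0.17, 0.85 and 1.56 on Ctrl-1 to Ctrl-4 and 1.11, 0.73, 7.28 and 3.09 on DIO-1 to DIO-4. In all 4, DIO-4 was second and Ctrl-2 lowest, and their profiles correlated at 0.986 to 0.999. Over the whole array, 9 probes with a range over 64-fold were highest on DIO-3. DIO-4 was second in all 9 and Ctrl-2 lowest in 8. Both ASMM10P probes with a range over 64-fold were also highest on DIO-3 with DIO-4 second.

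The 3 named marker genes also differed between arrays. Chgb read -2.39, 0.17, -1.90 and -0.89 on Ctrl-1 to Ctrl-4 and -2.65, 0.29, -2.16 and -2.51 on DIO-1 to DIO-4, so it was highest on DIO-2 and Ctrl-2. Mzb1 read 2.62 on Ctrl-2 and between -1.10 and -1.05 on the other Ctrl arrays, and 0.91, -1.25, 1.15 and 0.82 on DIO-1 to DIO-4. Mbp lay between -0.40 and 0.62, with its highest value on Ctrl-2. Their part, and that of other cells in the dissected gland, in the wide lncRNA profiles was not tested.

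**Figure D4:**
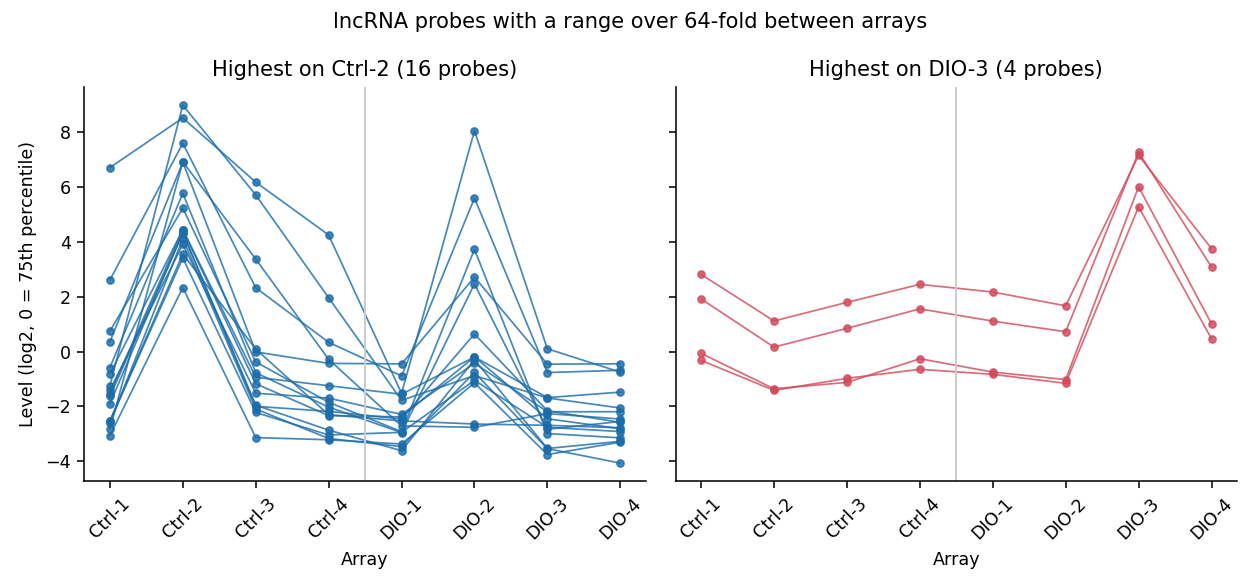
Level (vertical axis, log2 relative to the array's 75th percentile) on each array (horizontal axis) of the 20 lncRNA probes detected on all 8 arrays with a range over 64-fold; each line is 1 probe and joins arrays that have no order. The 16 probes on the left peak on Ctrl-2, most with a second peak on DIO-2, and the 4 on the right peak on DIO-3 with DIO-4 second.

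In the humanlincRNA, mouselincRNA and MM9LINCRNAEXON families a probe is named by a number and a plus or minus sign, and many numbers occur with both. The sources used here do not say what the sign means. There were 535 such pairs of humanlincRNA probes, 307 of mouselincRNA and 10 of MM9LINCRNAEXON. Across pairs, the levels of the plus and minus probes were close to unrelated, with Spearman correlations of 0.049 for humanlincRNA and -0.029 for mouselincRNA. The correlation for MM9LINCRNAEXON was 0.78 over only 10 pairs. Members of a pair share the array but may differ in sequence, so these correlations are descriptions.

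Within a pair the same probe tended to be the brighter one throughout. The order was the same on all 8 arrays in 382 humanlincRNA pairs (71.4%) and 242 mouselincRNA pairs (78.8%). Neither sign was brighter as a rule: the plus probe led in 251 and the minus probe in 284 humanlincRNA pairs, and in 157 and 150 mouselincRNA pairs. In 97 humanlincRNA pairs (18.1%) and 59 mouselincRNA pairs (19.2%), one probe was detected on all 8 arrays and the other on none. Of single probes in these families, 48.4% and 49.8% were detected on all arrays, and 21.1% and 18.9% on none. Probes paired at random were not examined, so neither the steady order nor the split detection can be called particular to these pairs. In the pair numbered 1739, humanlincRNA1739+_P1V4 read 6.15 on Ctrl-2 and 6.73 to 7.74 on the other arrays, while humanlincRNA1739-_P1V4 was not well above background on any array. In mouselincRNA0161 the signs were reversed: the minus probe read 7.86 to 8.19 and the plus probe was not well above background on any array.

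**Figure D5:**
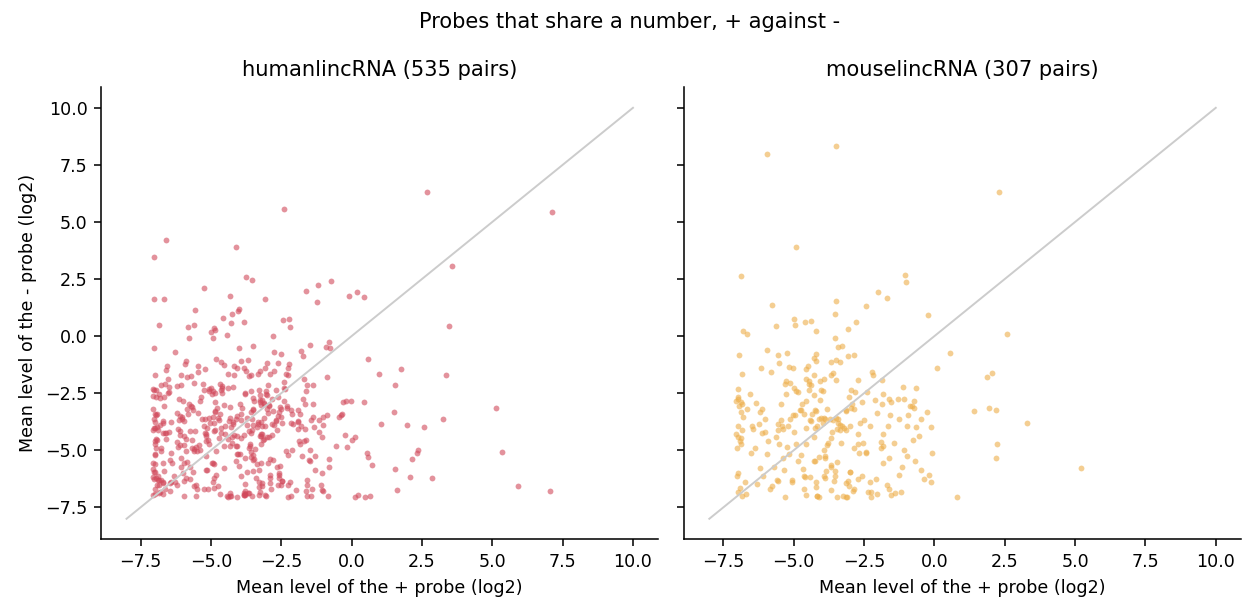
Mean level over 8 arrays of the minus probe (vertical axis, log2) against the plus probe (horizontal axis, log2) that shares its number, for 535 humanlincRNA and 307 mouselincRNA pairs; the grey line marks equal levels. The points fill a cloud without a diagonal trend (Spearman 0.049 and -0.029), and bright points lie along either axis.

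The numbers in ASMM10LNC1A identifiers carried some information on level. The 10006 probes whose number starts with 100 had a median level of -2.42, against -1.87 for the 17806 others, a difference of -0.56 that ran from -0.59 to -0.52 over the arrays. Each of the 18 other blocks, set by the first 3 digits, had a higher median, up to -1.51. In the 100 block 72.1% of probes were detected on all 8 arrays, against 85.3% of the others. This block still held bright probes: 4.34% of it lay above a level of 4, against 3.999% of the others. The sources used here do not say what the digits encode. Levels of probes with consecutive numbers were close to unrelated, with a Spearman correlation of levels of 0.022 over 5756 neighbours.

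The study's own contrast is the diet. Of the 29618 lncRNA probes, 26348 were detected on 4 or more arrays, with 3 or more values in each diet, and were tested within a fit of all 54187 such probes. At an adjusted p under 0.05, 0 lncRNA probes passed (limma, Benjamini-Hochberg adjusted across the whole fit, smallest adjusted p 0.774), against a background of 0 of 54187 (0%). At an unadjusted p under 0.05, 328 were higher on the high-fat diet, 1.24% against a background of 1.27% of all tested probes. Those lower at that threshold numbered 839, 3.18% against 3.24%. Every DIO array lay above every Ctrl array at 246 lncRNA probes (0.935%, background 0.924%) and below at 516 (1.96%, background 1.94%). The shares of the lncRNA probes were near the background in both directions.

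The lean toward lower values depended on the scaling. In the main fit, 28.1% of the 1167 lncRNA probes at an unadjusted p under 0.05 (limma) were higher on the high-fat diet. Over all tested probes it was 686 of 2441. Each other setting made its own calls. The higher share was 48.2% of 1022 with quantile normalization and 57.8% of 797 with normexp correction. It was 18.6% of 1302 when the 75th percentile was taken over detected spots. The median log2 difference (DIO minus Ctrl) was -0.02 for lncRNA probes and for all tested probes. The 95% interval excluded a difference over 2-fold in either direction for 84.1% of the tested lncRNA probes, near the 83.4% of all tested probes.

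The array medians gave no separate result. The median lncRNA level was -2.13 ± 0.02 on chow and -2.18 ± 0.04 on the high-fat diet (SD, n = 4 each), a difference of -0.046 (exact permutation test over 70 assignments, two-sided, p = 0.0857, adjusted 0.107, where 0.0286 is the smallest possible). It turned to 0.010 with quantile normalization and 0.0088 with normexp correction, and without DIO-4 it was -0.061 (exact p = 0.0286). Detection was 88.9% ± 3.46 and 86.2% ± 4.06, a difference of -2.61 points (exact permutation p = 0.371), and -0.75 without DIO-1. Taken by number, and so by the second part of the position, the DIO minus Ctrl differences were -3.11, -4.77, -1.56 and -1.005 points, lower in 4 of 4. Over these 4 pairs an exact sign-flip test gave p = 0.125, the smallest that 4 pairs allow, and without the arrays numbered 1 the mean difference was -2.45 points.

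The lncRNA probes with the smallest unadjusted p are given as a description, since limma gave each an adjusted p of 0.774. ASMM10LNC1A100058493V4 read -2.03, -2.81, -1.86 and -3.60 on Ctrl-1 to Ctrl-4 and -4.61, -5.64, -4.83 and -4.97 on DIO-1 to DIO-4. It was well above background on all Ctrl arrays and on no DIO array. With each DIO value set no lower than the lowest level detected on that array, it was 4.52-fold higher on chow. This is no lower limit, since undetected spots can be brighter than that level. On DIO-4 the probe read -4.97, above that array's lowest detected level of -5.10. The log2 difference was -2.44 (limma, 95% interval -3.33 to -1.56), and with normexp correction it was -0.50. ASMM10LNC1A102389034V4 read -3.39 ± 0.11 on chow and -4.14 ± 0.10 on the high-fat diet, with no overlap, and 3 of its 4 DIO arrays were above background. With normexp correction its difference of -0.75 became -0.17. The other 3 with the smallest p among lower probes, ASMM10LNC1A100094906V4, ASMM10LNC1A100016345V4 and mouselincRNA0597+_P1V4, were dim as well and were detected on 1, 3 and 1 of the 4 DIO arrays, with Ctrl means of -4.30, -3.73 and -3.75 and DIO means of -5.06, -4.31 and -5.03. Their differences were -0.03, -0.05 and -0.14 with normexp correction.

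The 5 with the smallest p among higher probes were brighter, with 1 exception. ASMM10LNC1A100047222V4 read 2.49, 1.94, 2.75 and 2.15 on chow and 3.28, 3.10, 3.01 and 3.48 on the high-fat diet, a difference of 0.89 (95% interval 0.44 to 1.33). ASMM10LNC1A100042326V4 went from 0.48 ± 0.18 to 1.17 ± 0.20, ASMM10LNC1A100063818V4 from 0.56 ± 0.27 to 1.37 ± 0.28, and ASMM10LNC1A100031688V4 from 1.53 ± 0.27 to 2.31 ± 0.26. In each of these 4 probes every DIO array lay above every Ctrl array. The dim exception, ASMM10LNC1A100090565V4, went from -3.68 ± 0.39 to -2.38 ± 0.58, and its DIO-2 value of -3.16 fell within the Ctrl range. With normexp correction its difference of 1.30 became 0.52, while the other 4 differences were between 0.61 and 0.87.

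Detection that split by diet was rare. Besides ASMM10LNC1A100058493V4, ASMM10LNC1A100042813V4 and ASMM10LNC1A111427334V4 were detected on all 4 Ctrl arrays and on no DIO array, with an adjusted p of 0.774 each (limma). With DIO values again set no lower than the lowest detected level, they were 1.34-fold and 1.48-fold higher on chow. These values are no lower limits either. The limma 95% intervals of their log2 differences were -1.51 to -0.24 and -1.15 to -0.34. No lncRNA probe had the opposite pattern. Over all 60823 probes, 14 were detected on Ctrl alone and 1 on DIO alone.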

How the data were processed

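The deposited scanner files give a processed signal intensity for each spot; per the file headers and the submitters' processing notes they were made with Agilent Feature Extraction 11.0.1.1, which had already subtracted background. Outlier spots were left out (37 lncRNA values), and control spots were used only for the negative control line. Levels are log2 intensity minus the 75th percentile of the array, and repeated spots were averaged. A probe counts as detected on an array if at least 50% of its spots carry the software's flag for being well above background. Diets were compared with limma 3.58.1 (R 4.3.3, lmFit and eBayes, 4 against 4 arrays) over all probes detected on at least 4 arrays, after a check on simulated data. Single values per array were tested with exact permutation tests. Named probes are the 10 brightest, the 5 with the smallest p in each direction, the 5 with the largest spread, those detected in 1 diet alone, and the brightest of each family. The probe sets, lists and tests were chosen with earlier results of these data known. Same-numbered arrays share the second part of their array position. After the diet mean of each probe was subtracted, they correlated at 0.29, 0.30, 0.26 and 0.06. Each Ctrl array correlated less with the DIO arrays of other numbers, for number 4 only narrowly (0.0625 against 0.0556). As 1 pair lay under 0.1, the main fit has no block. Probe sequences and gene names of lncRNA probes were not used here. The array number limits the precision.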

Additional observations from a re-analysis of the deposited data

Results flagged for a closer look

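Values were examined in groups of 4 arrays. A value was singled out when its gap to the nearest other array exceeded Dixon's 95% critical share of the group's range. Chance alone does this in about 1 in 20 groups, and 9 of the 106 groups examined did. The groups include probes that were named for their large spread, so this count cannot be set against that rate. On DIO-2, ASMM10LNC1A100042397V4 read 8.06 (other DIO arrays -1.52 to 0.10), ASMM10LNC1A108014197V4 read 3.73 (-3.14 to -2.92), ASMM10LNC1A103061809V4 read 5.60 (-0.89 to -0.68) and ASMM10LNC1A103564055V4 read 2.47 (-2.95 to -2.55). These are 4 of the 5 lncRNA probes named for the largest spread.

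On DIO-1, 3 bright probes lay above the other DIO arrays: ASMM10LNC1A102390067V4 at 9.58 (others 9.34 to 9.37), humanlincRNA2397+_P1V4 at 7.65 (7.12 to 7.19) and ASMM10P038161V4 at 9.42 (9.30 to 9.32). The humanlincRNA share of the brightest 1% was 0.329% on DIO-1, which is 2 probes, against 0.164% on the other DIO arrays. Detection of the 75 MM9LINCRNAEXON probes was 68.0% on Ctrl-1 and 76.0% to 77.3% on the other Ctrl arrays.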

How the results depend on the processing

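The diet count stayed at 0 lncRNA probes under every alternative run. The 10 diet-ranked probes kept their sign in 145 of 145 recomputations, with no adjusted p below 0.559 (limma). They were chosen by p from these same arrays, so a kept sign is no support for a diet difference. The size of their differences did not hold: with normexp correction the 5 lower probes went from between -2.44 and -0.57 to between -0.50 and -0.03. Counts of lncRNA probes at an unadjusted p under 0.05 (limma) moved more: 1167 as reported, 2213 with a replicate block (0 adjusted calls), 2117 without Ctrl-3, 774 without DIO-3 and 631 without DIO-1. The shares moved with those of all tested probes: 4.43% against 4.50% as reported and 8.40% against 8.35% with the block. They were 8.03% against 8.11% without Ctrl-3, 2.94% against 2.98% without DIO-3 and 2.39% against 2.44% without DIO-1. With diet means subtracted, each Ctrl array correlated best with the DIO array of its own number. For number 4 this was only 0.0625 against 0.0556 with another number, so the main fit has no block. A replicate block for the diet differences of level and detection was added after the data were seen, and left their means at -0.046 and -2.61 points (exact sign-flip p 0.125 for detection). The diet difference of the median lncRNA level reversed to 0.0102 with quantile normalization and 0.00877 with normexp correction; the cause was not tested. The lncRNA minus ASMM10P level difference was 0.00788 among probes detected on all 8 arrays, and the spread difference moved to -0.00213 with normexp correction and -0.0254 among those probes. Leaving out each array in turn gave 0.50 to 0.51 for level, -7.25 to -6.47 points for the brightest share, 6.68 to 7.24 points for detection, -0.055 to -0.044 for spread, -0.061 to -0.035 for the diet difference of level and -4.31 to -0.75 points for that of detection. Scaling choices moved the median diet difference of all tested probes from -0.05 to 0.02. Signal over background limits what can be read from the dim probes.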
